A study of Homo sapiens with 18 samples.

Results

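The replication-dependent histone genes encode the linker histone H1 and the core histones H2A, H2B, H3 and H4 that package newly copied DNA. The genes measured here were those of the human gene family symbols H1-1 to H1-6, H2AC, H2BC, H3C and H4C that an Affymetrix whole-transcript array assigned to a probe set of their own. By this rule 32 genes of the 22465 genes with such a probe set were taken, namely 6 genes of H1, 9 of H2A, 15 of H2B, 2 of H4 and 0 of H3. RefSeq lists 69 protein-coding genes that the same rule would take. Copies not counted among the 32 were measured, if at all, by rows shared between several genes. The rows shared by histone genes alone are described separately. The 32 genes lie in clusters on chromosome 6 (26 genes) and chromosome 1 (6 genes). The arrays were hybridised with total RNA of the human bladder cancer lines J82 and RT112. Control cells had been given PBS, and treated cells palbociclib, an inhibitor of the cyclin-dependent kinases CDK4 and CDK6, at the concentration the labels call IC50. The labels used here do not state the length of treatment. Each of the 4 groups (J82 control, J82 palbociclib, RT112 control and RT112 palbociclib) had 3 arrays, 1 for each of 3 dishes of a line, so the spread between arrays is a spread between cultures of a single line. The series also holds a further bladder line, whose arrays were not used here.

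Most histone protein of a dividing cell is made in S phase, when these genes are transcribed together in nuclear bodies organised around NPAT, the coactivator that cyclin E with CDK2 phosphorylates. Their mRNAs end in a stem-loop in place of a poly(A) tail, and the stem-loop binding protein SLBP directs their processing, translation and decay. CDK4 and CDK6 act upstream, releasing cells from G1 into S phase by phosphorylating the retinoblastoma protein, which is known to be defective in many bladder cancers.

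The values are log2 intensities as deposited, and they reach 19.93, above the 16 that log2 of a 16-bit scan allows, so a log2 difference is given as such and not as a fold change. The median of an array lay between 4.80 and 4.94 on 11 of the 12 arrays and at 5.209 on RT112 palbociclib replicate 1. Replicates correlated over all rows at 0.973 or more in RT112 palbociclib and at 0.985 or more elsewhere. The counts of genes called in RT112, and those of the histone classes, lists and shared rows, are given without it as well. The epithelial marker CDH1 averaged 13.51 in RT112 controls and 5.68 in J82 controls, and KRT5 15.54 and 6.35, while KRT8 and KRT18 stood at 13.70 and 14.38 in J82 controls. The leukocyte marker PTPRC averaged 4.26 in J82 controls, below the array medians, but CD14, also a leukocyte marker, averaged 5.25, above them. In RT112 controls CD14 averaged 3.99. Of 6 mesenchymal markers 3 were lower in RT112 controls than in J82 controls (50%, against 14.7% of all genes) and 0 were higher. The 3 were VIM (4.69 and 6.03), COL1A2 (5.65 and 7.74) and PDGFRB (5.28 and 7.21). Probe sets differ in brightness, so log2 differences are taken between arrays for a gene. Sorting genes by their level against the array medians does compare probe sets, and it carries this limit. Many histone genes are near-identical copies of each other, and a probe set assigned to 1 gene may also take signal from another copy.

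Palbociclib lowered histone mRNA levels in RT112. Of the 32 genes, 19 fell (59.4%), and 0 rose, at an adjusted p under 0.05 in limma with Benjamini-Hochberg adjustment over all 22465 genes (n = 3 arrays in each group). The same call was made for 3.53% of all genes in the lower direction and for 4.95% in the higher direction. The median log2 difference over the 32 genes was -1.38, and that over all genes was 0.04. The differences ran from -6.35 for H2BC3 to 0.10 for H2AC1. For 21 genes (65.6%) all 3 palbociclib arrays lay under all 3 control arrays, against 8.26% of all genes, and for 0 genes they lay above, against 14.5% of all genes. Without RT112 palbociclib replicate 1 the count of genes that fell was 18 and the median -1.30, with 2 of 6 H1 genes, 6 of 9 H2A genes, 9 of 15 H2B genes and 1 of 2 H4 genes falling. In RNA from whole cultures, fewer cells in S phase and less histone mRNA in each cell cannot be told apart. The 12 genes used as a reference for S phase and proliferation all fell in RT112 as well (100%, against 3.53% of all genes). They also did so without RT112 palbociclib replicate 1. Their median was -2.63, with a range from -4.53 for TYMS to -1.72 for MCM2, and their part in the histone result was not tested.

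**Figure D1:**
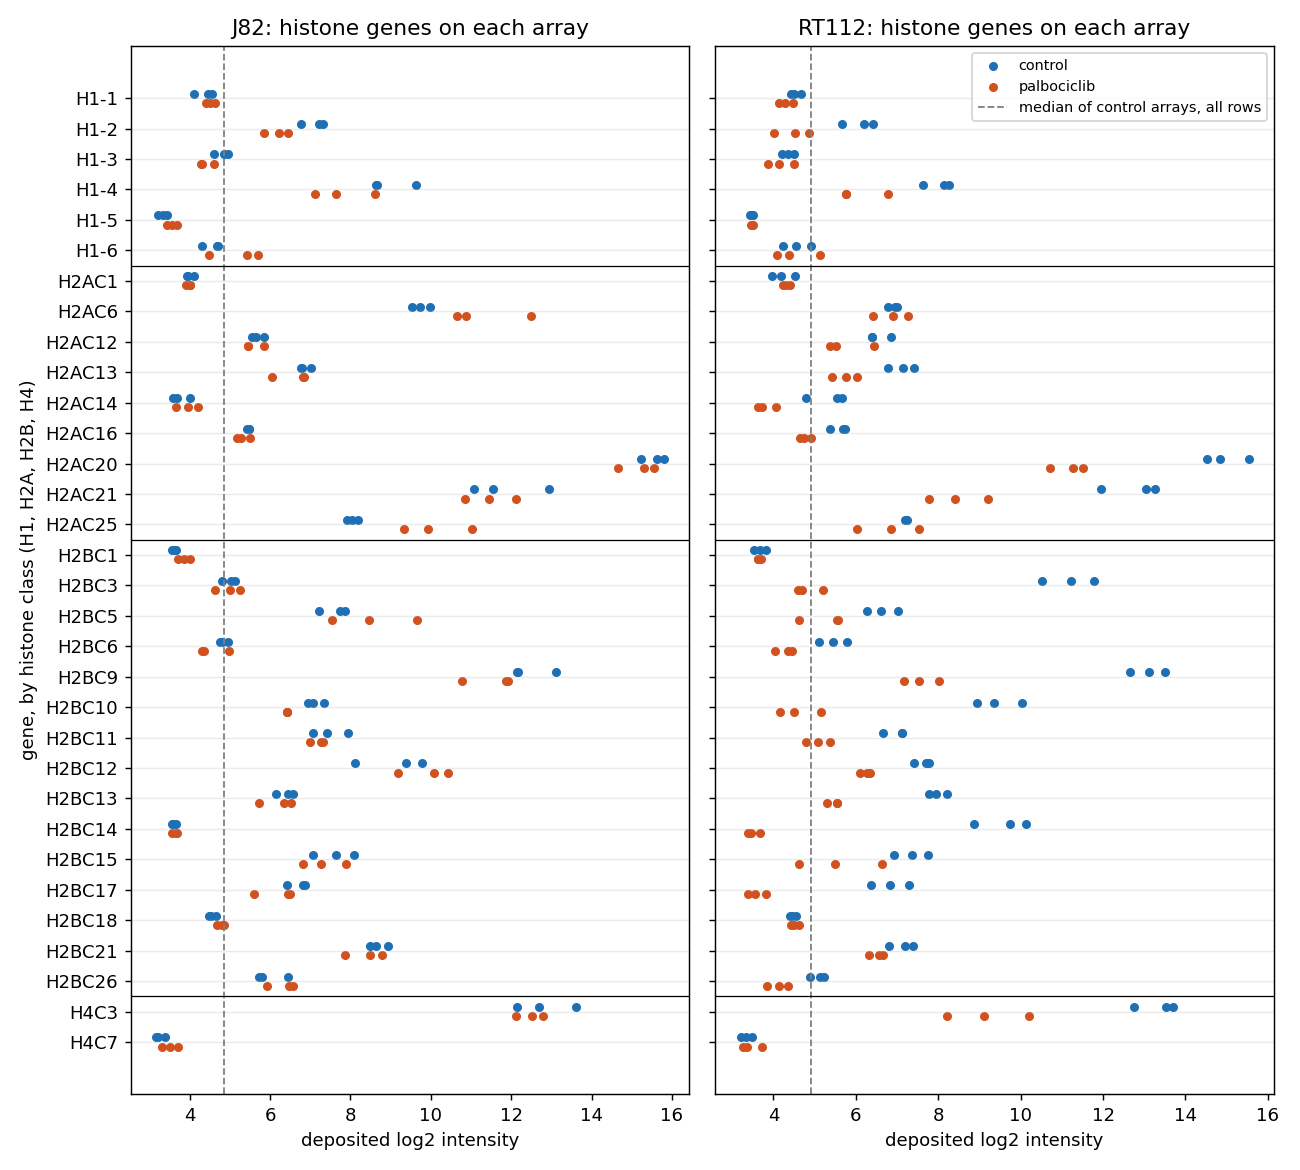
Deposited log2 intensity (horizontal axis) of each of the 32 histone genes (vertical axis, by class) on each array of J82 (left) and RT112 (right). Each point is 1 array, blue for control and orange for palbociclib, and the dashed line is the mean of the medians of the control arrays. In RT112 the orange points lie wholly to the left of the blue points for 21 genes, while in J82 they do so for 5.

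The H2B genes, whose product pairs with H2A in the nucleosome, held the most negative differences. In RT112 11 of the 15 H2B genes fell (73.3%, against 3.53% of all genes), with a median of -1.76. H2BC3 read 11.79, 11.22 and 10.52 on the RT112 control arrays and 4.69, 4.59 and 5.21 on the palbociclib arrays, a log2 difference of -6.35 ± 0.27 (SE, limma, adjusted p = 7.83e-09, n = 3 in each group). H2BC14 read 9.73, 10.14 and 8.86 in controls and 3.68, 3.38 and 3.46 under palbociclib (-6.07 ± 0.23, limma, adjusted p = 2.88e-09, n = 3 in each group). For both genes the groups were far apart, and the treated arrays of H2BC14 were all under the array medians. H2BC9 read 13.50, 13.12 and 12.65 in controls and 8.02, 7.16 and 7.53 under palbociclib (-5.52 ± 0.35, limma, adjusted p = 1.94e-07, n = 3 in each group). Its treated arrays stayed well above the array medians, away from the lower end of the scale. H2BC10 (-4.83), H2BC17 (-3.24), H2BC13 (-2.51), H2BC11 (-1.88), H2BC15 (-1.76), H2BC6 (-1.16) and H2BC26 (-0.96) also fell. H2BC12 read 7.40, 7.69 and 7.77 in controls and 6.10, 6.34 and 6.26 under palbociclib (-1.39 ± 0.36, limma, adjusted p = 0.0298, n = 3 in each group). The groups of H2BC12 did not overlap, but its call was lost when any 1 of the 6 RT112 arrays was left out (differences from -1.50 to -1.31) and with the arrays shifted to a single median (-1.42). H2BC5 and H2BC21 did not pass the threshold and are described with the genes that make polyadenylated transcripts. H2BC1, known from testis, and H2BC18 did not pass it either (-0.03 and 0.06).

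H2B promoters are known for an octamer that the factor POU2F1 (Oct-1) binds, and the stretches before the 3 H2B genes with the most negative values are shown because they carry it. They are the 150 bases before the RefSeq start of each gene in GRCh38.p14, 5′ to 3′ along the gene, for H2BC3 (chr6:26043714-26043863, minus strand), H2BC14 (chr6:27814872-27815021, plus strand) and H2BC9 (chr6:26251464-26251613, plus strand). Capitals mark the octamer ATTTGCAT, the CCAAT box and the TATA motif TATAA, each on either strand.
H2BC3: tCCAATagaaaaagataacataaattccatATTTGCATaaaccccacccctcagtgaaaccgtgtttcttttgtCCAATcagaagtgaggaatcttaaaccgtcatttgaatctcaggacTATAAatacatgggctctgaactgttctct
H2BC14: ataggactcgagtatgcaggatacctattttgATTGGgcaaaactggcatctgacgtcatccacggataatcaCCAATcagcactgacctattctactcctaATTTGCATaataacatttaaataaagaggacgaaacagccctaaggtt
H2BC9: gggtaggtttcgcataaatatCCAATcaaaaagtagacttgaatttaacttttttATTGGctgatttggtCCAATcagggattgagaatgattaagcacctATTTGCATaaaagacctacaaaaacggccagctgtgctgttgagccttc

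Of the 32 genes, 30 had a RefSeq promoter entry, and in that window 13 of them held the octamer (43.3%), 29 the CCAAT box (96.7%) and 21 TATAA (70%). Over all 27305 RefSeq promoters the shares were 0.985%, 24.4% and 12.7%. The octamer was found before 11 of 15 H2B genes, 2 of 8 H2A genes and 0 of 6 H1 genes. It was present before 8 of 18 genes that fell in RT112 (44.4%) and before 5 of 12 that did not pass the threshold (41.7%). TATAA was present before 10 of the 18 (55.6%) and 11 of the 12 (91.7%), and the CCAAT box before 18 of 18 and 11 of 12. These shares were not tested against each other.

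The H2A genes, whose product pairs with H2B, fell in 5 of 9 cases in RT112 (55.6%, against 3.53% of all genes). Their median was -0.82. H2AC21 read 13.25, 13.03 and 11.95 in controls and 9.21, 7.77 and 8.40 under palbociclib (-4.28 ± 0.50, limma, adjusted p = 6.51e-05, n = 3 in each group). H2AC20 read 15.53, 14.84 and 14.52 in controls and 11.27, 10.71 and 11.52 under palbociclib (-3.80 ± 0.30, limma, adjusted p = 1.79e-06, n = 3 in each group). The groups of both genes were separate, and their treated arrays remained high above the array medians. H2AC14 (-1.54), H2AC13 (-1.37) and H2AC16 (-0.82) fell too. H2AC12 was at -0.76 with an adjusted p of 0.0642 (limma, n = 3 in each group) and did not pass the threshold. H2AC1, a testis gene, was at 0.10.

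H2A and H2B genes often stand back to back, and such pairs did not always move alike. H2AC20 and H2BC21 start on opposite strands of chromosome 1, and their windows share 65 bases. H2AC20 fell by 3.80 in RT112, while H2BC21 was at -0.61 ± 0.22 and did not pass the threshold (limma, adjusted p = 0.129, n = 3 in each group). The difference between the genes of a pair was not tested. Their promoters are shown because the pair shares this stretch, at chr1:149886768-149886917 (plus strand) for H2AC20 and chr1:149886683-149886832 (minus strand) for H2BC21 (GRCh38.p14, from RefSeq), with capitals as above. Where TATAA lies on both strands it reads TTATAA.
H2AC20: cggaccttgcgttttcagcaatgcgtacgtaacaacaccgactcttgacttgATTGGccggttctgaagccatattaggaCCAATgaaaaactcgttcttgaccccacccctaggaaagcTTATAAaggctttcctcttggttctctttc
H2BC21: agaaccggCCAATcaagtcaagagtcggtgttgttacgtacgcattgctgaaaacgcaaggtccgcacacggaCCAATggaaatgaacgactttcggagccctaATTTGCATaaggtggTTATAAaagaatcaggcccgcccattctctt

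Both windows held TATAA and CCAAT, and the octamer was found in that of H2BC21 and not in that of H2AC20. In the pair H2AC14 and H2BC14, whose windows share 56 bases, the log2 differences in RT112 were -1.54 and -6.07, and both passed the threshold. H2AC13 and H2BC13 share 57 bases and both fell, with log2 differences of -1.37 and -2.51. H2AC25 and H2BC26 share 71 bases. In RT112 H2AC25 was at -0.41, not past the threshold, while H2BC26 fell by 0.96. H2AC1 and H2BC1 share 86 bases and both stayed at low levels.

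Among the genes of the linker histone, which binds DNA between nucleosomes, 2 of 6 fell in RT112 (33.3%, against 3.53% of all genes). Their median was -0.22. H1-4 read 8.13, 8.25 and 7.62 in RT112 controls and 6.77, 5.75 and 5.75 under palbociclib (-1.91 ± 0.38, limma, adjusted p = 0.00619, n = 3 in each group). H1-2 read 6.42, 6.19 and 5.66 in controls and 4.86, 4.01 and 4.53 under palbociclib (-1.62 ± 0.24, limma, adjusted p = 6.04e-04, n = 3 in each group). In neither gene did the groups overlap. H1-1, H1-3, H1-5 and the testis gene H1-6 lay between -0.24 and 0.01 and were under the array medians in both lines' controls.

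H4C3 and H4C7 were the genes of H4, the partner of H3, with a probe set of their own. H4C3 read 13.69, 13.52 and 12.74 in RT112 controls and 10.21, 8.21 and 9.10 under palbociclib (-4.14 ± 0.45, limma, adjusted p = 3.53e-05, n = 3 in each group), with no overlap. H4C7 read 3.20, 3.34 and 3.48 in RT112 controls and 3.72, 3.35 and 3.26 under palbociclib, all under the array medians.

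All genes that fell in RT112 had control levels above the array medians. In RT112 controls 24 genes averaged above the array medians, and 19 of these fell (79.2%, against 3.53% of all genes), with a median of -1.69. The control arrays that set this split also enter the differences. The other 8 (H1-1, H1-3, H1-5, H1-6, H2AC1, H2BC1, H2BC18 and H4C7) were below the median in both lines, and 0 of them passed the threshold in RT112 or J82 in limma. Their differences in RT112 ran from -0.24 to 0.10. Of the 24 genes above the medians in RT112 controls, 15 were still above them under palbociclib and 9 were below (H1-2, H2AC14, H2AC16, H2BC3, H2BC6, H2BC10, H2BC14, H2BC17 and H2BC26). For those 9 the lower end of the scale limits the fall that can be measured. The 5 genes above the medians that did not pass the threshold in RT112 were H2AC6, H2AC12, H2AC25, H2BC5 and H2BC21.

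In J82 palbociclib moved few of these genes. Of the 32 genes 1 fell, H1-2 (3.12%, against 2.78% of all genes), and 2 rose, H2AC25 and H2AC6 (6.25%, against 5.4% of all genes), so neither share stood far from that of all genes. The median log2 difference was -0.13, against 0.04 over all genes. All palbociclib arrays lay under all control arrays for 5 genes, H1-2, H1-3, H1-4, H2BC9 and H2BC10 (15.6%, against 7.82% of all genes), and above them for 4, H2AC6, H2AC25, H2BC1 and H2BC18 (12.5%, against 16.1%). In J82 controls 21 genes were above the array medians, and all 21 were still above them under palbociclib. Of the S phase reference genes, CCNA2 and MKI67 fell in J82 (16.7%, against 2.78% of all genes), and the median of the 12 was 0.17.

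H1-2 read 7.32, 6.77 and 7.21 on the J82 control arrays and 6.23, 5.84 and 6.44 on the palbociclib arrays (-0.93 ± 0.24, limma, adjusted p = 0.0284, n = 3 in each group). The groups did not overlap, but the call was lost without J82 control replicate 1 (-0.82), control replicate 3 (-0.88) or palbociclib replicate 2 (-0.76). H1-4 read 9.64, 8.65 and 8.63 in J82 controls and 8.62, 7.11 and 7.63 under palbociclib (-1.18 ± 0.38, limma, adjusted p = 0.0804, n = 3 in each group). It did not pass the threshold over all arrays and did so without palbociclib replicate 1 (-1.60) and with the replicate number as a block (-1.18, limma, adjusted p = 0.00371, n = 3 in each group), although the numbers were not taken to pair the cultures.

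H2AC25 read 8.04, 7.91 and 8.20 in J82 controls and 11.03, 9.34 and 9.94 under palbociclib, a rise of 2.05 ± 0.38 (limma, adjusted p = 0.00392, n = 3 in each group). The call held with each array left out in turn (1.59 to 2.44). In RT112 the same gene read 7.20, 7.21 and 7.24 in controls and 7.53, 6.02 and 6.86 under palbociclib (-0.41), where the groups overlap. That value was -0.78 without RT112 palbociclib replicate 1 and -0.02 without replicate 2, and with array weights the gene passed as lower (-0.88, limma, adjusted p = 0.0385, n = 3 in each group). H2AC6 read 9.74, 9.98 and 9.53 in J82 controls and 10.65, 12.50 and 10.87 under palbociclib (1.59 ± 0.37, limma, adjusted p = 0.0159, n = 3 in each group). The J82 groups of H2AC6 were separate, with palbociclib replicate 2 far above the rest, and the call was lost without control replicate 3 (1.48), with the arrays shifted to a single median (limma, adjusted p = 0.0588, n = 3 in each group) and with each line fitted alone (adjusted p = 0.0842). In RT112 H2AC6 read 6.96, 6.78 and 6.99 in controls and 6.41, 7.26 and 6.89 under palbociclib (-0.06), with overlap. The 150 bases before both genes are shown because these are the genes that rose, at chr1:228457874-228458023 (minus strand) for H2AC25 and chr6:26124022-26124171 (plus strand) for H2AC6 (GRCh38.p14, from RefSeq), with the motifs in capitals as above.
H2AC25: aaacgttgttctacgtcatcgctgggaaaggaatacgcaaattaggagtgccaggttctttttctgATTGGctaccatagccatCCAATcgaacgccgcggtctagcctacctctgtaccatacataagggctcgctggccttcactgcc
H2AC6: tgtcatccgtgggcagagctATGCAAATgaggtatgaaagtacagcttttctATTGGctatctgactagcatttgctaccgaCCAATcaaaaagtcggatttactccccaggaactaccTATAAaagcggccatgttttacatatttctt

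The window of H2AC6 held the octamer, on the opposite strand, with CCAAT on both strands and TATAA. That of H2AC25 held CCAAT on both strands, without the octamer or TATAA.

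The size of the response was compared between the lines directly. The sample descriptions give the dose of each line only as IC50. A difference in dose therefore cannot be told apart from a difference between the lines. The test of the difference (response in RT112 minus response in J82, limma) called 16 of the 32 genes more negative in RT112 (against 2.74% of all genes) and 0 more positive (against 1.83%). The median difference was -1.39, and that over all genes was -0.01. Without RT112 palbociclib replicate 1 the count was 17. H2BC3 and H2BC14 had the most negative differences, at -6.32 ± 0.38 (adjusted p = 9.13e-07, limma) and -6.10 ± 0.32 (adjusted p = 3.99e-07, limma). In J82 H2BC3 read 5.12, 5.02 and 4.81 in controls and 5.24, 4.62 and 5.01 under palbociclib. H2BC14 read 3.65, 3.58 and 3.55 and then 3.68, 3.55 and 3.65. Both were near or under the array medians of J82 before treatment, which limits the fall that can be measured there.

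H2BC9, H2AC20, H2AC21 and H4C3 were, by contrast, far above the array medians in the controls of both lines. H2BC9 read 13.11, 12.18 and 12.15 in J82 controls and 11.91, 10.78 and 11.87 under palbociclib, all palbociclib arrays being lower (-0.96 ± 0.35, limma, adjusted p = 0.127, n = 3 in each group, and 0.028 with the replicate block). Its response differed by -4.56 ± 0.50 between the lines (limma, adjusted p = 7.94e-05). H2AC20 read 15.80, 15.64 and 15.23 and then 15.55, 14.65 and 15.30 in J82, with overlap, and its response differed by -3.41 ± 0.43 (limma, adjusted p = 2.81e-04). H2AC21 read 12.95, 11.54 and 11.07 and then 12.12, 10.86 and 11.44 in J82, with overlap, and differed by -3.90 ± 0.71 (limma, adjusted p = 0.00494). H4C3 read 13.61, 12.70 and 12.15 and then 12.78, 12.11 and 12.52, with overlap, and differed by -3.79 ± 0.64 (limma, adjusted p = 0.00298). The other genes called were H2AC14, H2AC16, H2AC25, H2BC5, H2BC10, H2BC11, H2BC12, H2BC13, H2BC17 and H2BC26. For H1-2 and H1-4, which were lower on every palbociclib array than on every control array in both lines, the difference between the lines was -0.69 ± 0.34 and -0.73 and did not pass the threshold (limma, adjusted p = 0.386 and 0.694). Across the 32 genes the responses in the lines had a Pearson r of 0.42 and a Spearman rho of 0.56, a description over genes that share arrays and are not independent.

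**Figure D2:**
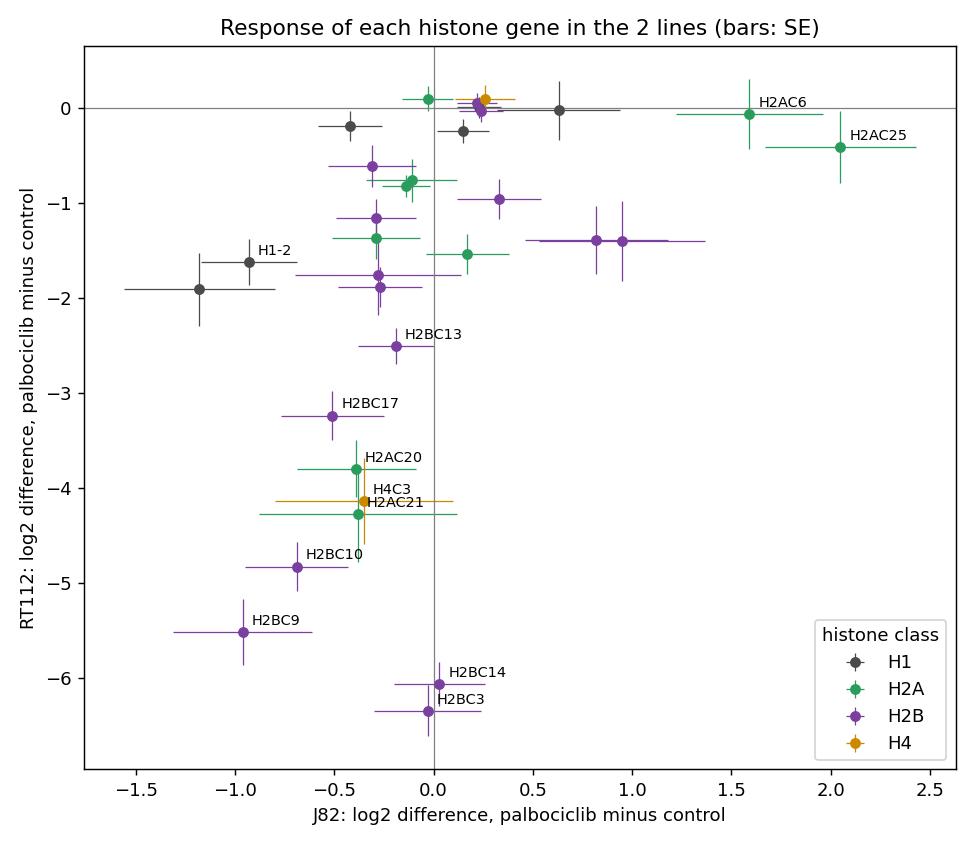
Log2 difference, palbociclib minus control, of each histone gene in J82 (horizontal axis) and in RT112 (vertical axis), with bars of 1 SE and colours for the histone class. Most genes lie below 0 on the RT112 axis and near 0 on the J82 axis, H1-2 lies below 0 on both, and H2AC25 and H2AC6 lie to the right.

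Several copies differed between the lines before treatment. In RT112 controls 7 of the 32 genes were higher than in J82 controls (21.9%, against 12.8% of all genes) and 6 were lower (18.8%, against 14.7%), with a median of 0.11 (0.05 over all genes). H2BC3 was 6.19 ± 0.27 higher on the log2 scale in RT112 (limma, adjusted p = 4.18e-10, n = 3 in each group), H2BC14 5.98 ± 0.23 higher (limma, adjusted p = 1.19e-10, n = 3 in each group) and H2BC10 2.32 ± 0.26 higher (limma, adjusted p = 8e-06, n = 3 in each group). H2BC14 averaged 3.59 in J82 controls, under the array medians, and the table holds no detection calls, so the size of its difference depends on the lower end of the scale. H2BC13, H2AC14, H2AC12 and H2BC6 were the others. The 6 genes lower in RT112 were H1-2, H1-3, H2AC6, H2BC12, H2BC21 and H2BC26, and H2AC6 had the largest gap (-2.84 ± 0.37, limma, adjusted p = 3.35e-05, n = 3 in each group). H2AC14, H2BC6 and H2BC14 were above the array medians in RT112 controls and below them in J82 controls.

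Some replication-dependent genes are also known to give polyadenylated transcripts in cells that have left the cycle or differentiated. Of 6 such genes listed, H1-2, H2AC6, H2BC5, H2BC12 and H2BC21 were measured. In RT112 H1-2 and H2BC12 fell (40%, against 3.53% of all genes) and 0 rose. The median of the 5 was -1.39 (1 fell without RT112 palbociclib replicate 1). In J82 H1-2 fell (20%, against 2.78%), H2AC6 rose (20%, against 5.4%), and the median was 0.82. In controls 4 of the 5 (H1-2, H2AC6, H2BC12 and H2BC21) were lower in RT112 than in J82 (80%, against 14.7% of all genes). H2BC5 read 7.22, 7.73 and 7.87 in J82 controls and 9.66, 7.54 and 8.47 under palbociclib, with overlap (0.95 ± 0.42, limma, adjusted p = 0.222, n = 3 in each group). In RT112 it read 6.62, 7.03 and 6.26 and then 5.56, 4.61 and 5.53, without overlap (-1.40 ± 0.42, limma, adjusted p = 0.0546, n = 3 in each group). Without J82 palbociclib replicate 2 H2BC5 passed in J82 (1.46), and without J82 palbociclib replicate 1 or 2 it passed in RT112 (-1.40). It also passed in RT112 with genes above the array medians only (limma, adjusted p = 0.037, n = 3 in each group), with array weights (-1.72, adjusted p = 0.00344) and with each line fitted alone (adjusted p = 0.0172).

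H2BC12 read 9.38, 9.78 and 8.11 in J82 controls and 9.19, 10.08 and 10.44 under palbociclib, with overlap (0.82 ± 0.36, limma, adjusted p = 0.232, n = 3 in each group). H2BC21 read 8.63, 8.49 and 8.94 and then 8.79, 7.86 and 8.49 in J82, and 7.39, 7.20 and 6.80 and then 6.33, 6.66 and 6.56 in RT112. Its groups overlapped in J82 and were separate in RT112. The difference between the lines was called for H2BC12 (-2.20 ± 0.51, limma, adjusted p = 0.0245) and for H2BC5 (-2.35 ± 0.59, limma, adjusted p = 0.036). The call for H2BC12 was lost without J82 palbociclib replicate 2 or 3, RT112 control replicate 2 or 3, or RT112 palbociclib replicate 1 (-2.17 to -1.93), and with the arrays shifted to a single median (-2.23). That for H2BC5 was lost without any of the 3 J82 control arrays, J82 palbociclib replicate 3, RT112 control replicate 1 or 2, or RT112 palbociclib replicate 2 (-2.48 to -2.04), and with the arrays shifted to a single median (-2.38).

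Further histone signal lay in 36 rows that the array annotates to several histone genes at once, among them the H3 rows described here. Rows that also carry any other symbol were not taken. They were fitted with all rows of several symbols added, 24008 rows in all, a choice made after the annotation was seen, and no gene is named from them. In RT112 25 of the 36 rows fell (against 3.59% of all rows fitted) and 0 rose (against 4.93%), with a median of -1.18. Without RT112 palbociclib replicate 1 27 fell, 0 rose and the median was -1.29. In J82 1 fell (against 2.87%) and 3 rose (against 5.57%). Of the 12 H3 rows 8 fell in RT112, with a median of -1.06 and the lowest at -6.18. That row averaged 12.03 in RT112 controls and 5.84 under palbociclib, and in J82 it was the row that fell, from 11.63 to 10.03 (-1.60 ± 0.45, limma, adjusted p = 0.0411, n = 3 in each group). Without RT112 palbociclib replicate 1, which enters the shared estimate of the spread, 0 of the 36 rows fell in J82 in limma and the same number as before (3) rose. Another H3 row averaged 17.57 in RT112 controls and 5.64 in J82 controls, a difference of 11.93 ± 0.29 (limma, adjusted p = 1.33e-12, n = 3 in each group). Under palbociclib it fell to 11.99 in RT112, by 5.58 ± 0.29 (limma, adjusted p = 5.02e-08, n = 3 in each group).

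The 13 H4 rows, each annotated to the same number of genes (14), held both falls and rises. In RT112 9 fell, with a median of -0.58 and the lowest at -4.05. Above the array medians in RT112 controls 5 of 7 fell (71.4%), and below them 4 of 6 (66.7%), against 3.59% of all rows fitted. The 3 rows that rose in J82 were all H4 rows (23.1% of the 13, against 5.57% of all rows fitted). Of these, 1 went from 5.94 to 8.05 (2.11 ± 0.13, limma, adjusted p = 7.59e-07, n = 3 in each group), another from 6.05 to 8.08 (2.03 ± 0.15, limma, adjusted p = 3.85e-06, n = 3 in each group) and the last from 10.17 to 11.35 (1.18 ± 0.25, limma, adjusted p = 0.00844, n = 3 in each group). The same rows stood at -0.54, -0.56 and -0.58 in RT112, where the former pair passed the threshold. That pair read nearly alike in every group, so its rows may not be separate rises. In RT112 4 of the 7 H2A rows and 3 of the 3 H2B rows fell. Over all 36 rows the response was more negative in RT112 than in J82 for 20 (against 2.83% of all rows fitted) and more positive for 0 (against 1.84%).

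**Figure D3:**
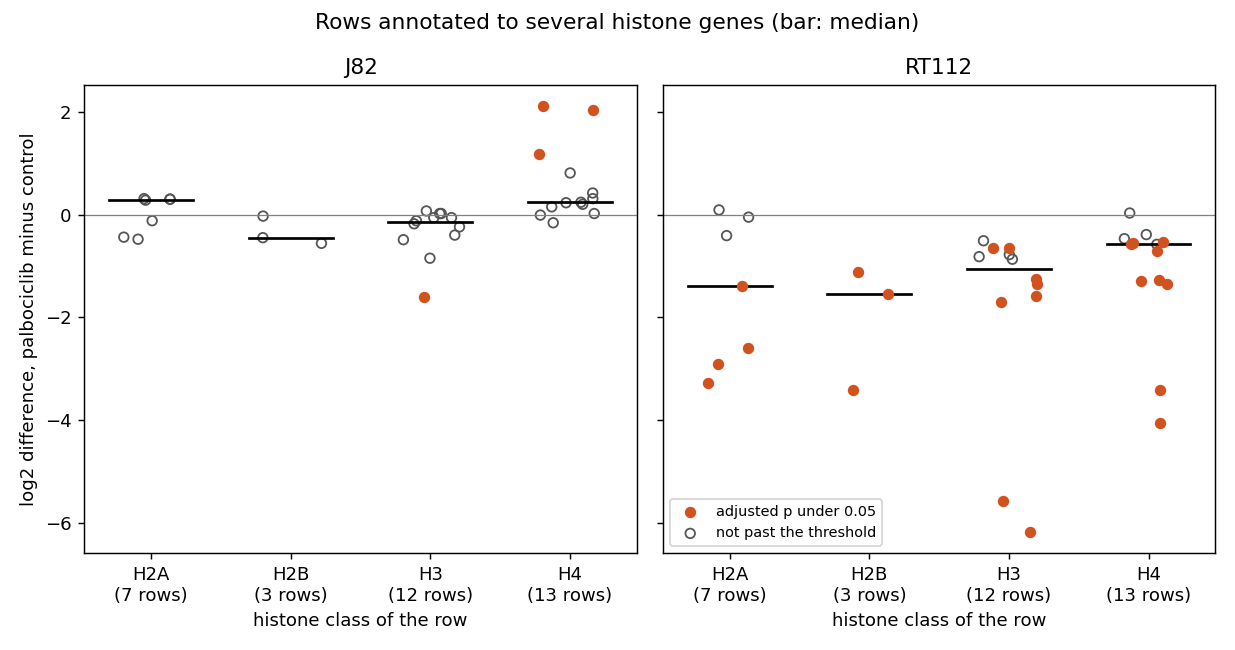
Log2 difference, palbociclib minus control, in J82 (left) and RT112 (right) of the rows annotated to several histone genes of 1 class. Each point is a row, filled orange where its adjusted p was under 0.05, and the bar is the median of the class, which for H3 in RT112 is -1.06. A single row shared by H2A and H3 genes is not drawn.

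The genes that make and process histone transcripts were examined beside them. Of 33 genes listed for histone gene transcription and for 3′ end processing of histone mRNA, 30 were measured. In RT112 9 of the 30 fell (30%, against 3.53% of all genes) and 0 rose (against 4.95%), with a median of -0.22. The counts were also 9 and 0 without RT112 palbociclib replicate 1. SLBP read 9.08, 9.14 and 8.97 in RT112 controls and 7.65, 7.92 and 8.11 under palbociclib (-1.17 ± 0.17, limma, adjusted p = 5.45e-04, n = 3 in each group). NPAT fell by 0.97 ± 0.16 (limma, adjusted p = 0.00135, n = 3 in each group), and CASP8AP2 (FLASH), which works with it in the histone bodies, fell by 0.68 ± 0.16 (limma, adjusted p = 0.0187, n = 3 in each group). CCNE2 (-2.75) and CDK2 (-2.31), the cyclin E2 and kinase partner that act on NPAT, fell most, and CCNE1 (-0.67), the cap-binding NCBP1 (-0.82) and the small nuclear ribonucleoprotein genes SNRPB (-0.74) and SNRPG (-0.66) also fell. In J82 1 gene fell, NCBP1 (-0.70), a share of 3.33% against 2.78% of all genes, and 0 rose (against 5.4%). Without RT112 palbociclib replicate 1, 2 genes fell in J82. The J82 median was 0.02, while SLBP was at 0.27, NPAT at -0.28 and CASP8AP2 at 0.05. The response was more negative in RT112 than in J82 for 10% of the 30 genes, against 2.74% of all genes. These were SLBP (-1.43 ± 0.24, limma, adjusted p = 0.00301), CDK2 (-2.19) and CCNE2 (-2.51), and 0 genes had a more positive response. The counts became 5 more negative and 1 more positive without RT112 palbociclib replicate 1.

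**Figure D4:**
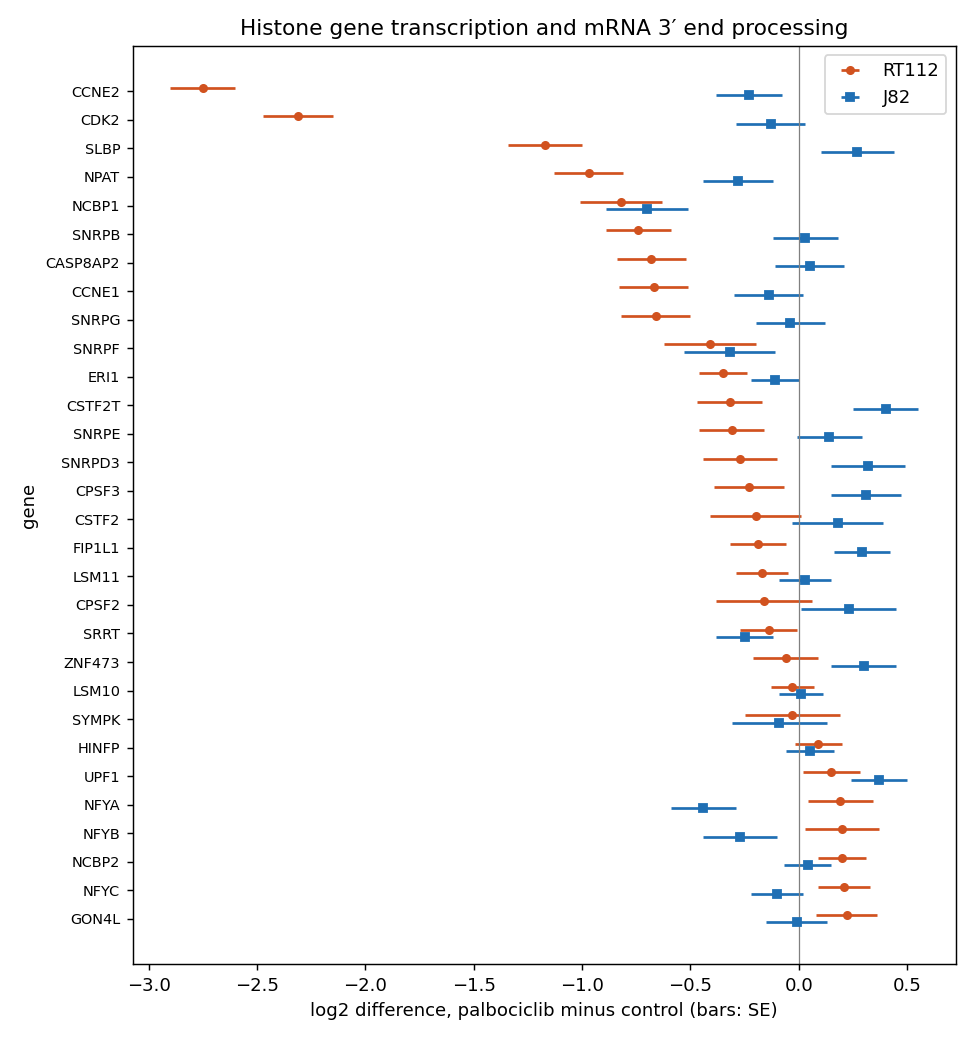
Log2 difference, palbociclib minus control, of the 30 measured genes of histone gene transcription and 3′ end processing in RT112 (orange circles) and J82 (blue squares), with bars of 1 SE. CCNE2, CDK2, SLBP and NPAT lead the falls in RT112, while the J82 values lie between -0.70 and 0.40.

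Histone variants are forms that cells can load outside S phase. Of 18 listed, 12 were measured, with a median of -0.30 in RT112. There 4 fell (33.3%, against 3.53% of all genes) and 0 rose (5 and 0 without RT112 palbociclib replicate 1). They were H2AX (-3.09), whose gene also gives a stem-loop mRNA in S phase, H2AZ2 (-1.54), H2AZ1 (-1.43) and CENPA (-0.50), the centromeric form of H3, which is made in G2 phase. In J82 0 of the 12 passed the threshold in limma (against 2.78% of all genes lower and 5.4% higher), and the median was 0.05. Of 22 histone chaperones listed, which carry histones to DNA, 21 were measured, with a median of -0.70 in RT112. There 10 fell (47.6%, against 3.53% of all genes) and 0 rose (8 and 1 without RT112 palbociclib replicate 1). HJURP (-3.23), which loads CENPA, CHAF1B (-2.34), a subunit of the replication-coupled assembly factor CAF-1, ASF1B (-1.81) and NASP (-1.51), carriers of H3 and H4, led. In J82 CHAF1B rose by 0.76 ± 0.15 (limma, adjusted p = 0.00742, n = 3 in each group), and IPO4, an importer of H3 and H4, fell by 0.67. So 4.76% of the chaperones rose, against 5.4% of all genes, and 4.76% fell, against 2.78%. The median of the chaperones in J82 was 0.22. Without RT112 palbociclib replicate 1, 3 chaperones rose in J82 and 1 fell.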

How the data were processed

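Per the labels' protocols, biotinylated DNA made from total RNA was read on Affymetrix whole-transcript arrays. The authors deposited log2 intensities, 1 for each probe set and array, and the submitters' processing notes name RMA and Expression Console from Affymetrix. No build of the array's annotation is stated in the labels. Of 70523 rows, 67528 are transcript clusters, of which 23781 carried 1 symbol and 1543 several in the platform annotation. The row with the highest mean was kept for a gene, which mattered for 1 histone gene (H2BC11), and 2 older histone names were updated through RefSeq. The 4 group means of the 12 arrays were estimated by limma 3.58.1 (R 4.3.3), with moderated variances following an intensity trend and 8 residual degrees of freedom. P-values were adjusted over all 22465 genes by Benjamini-Hochberg, with a threshold of 0.05. No intensity filter was set, and the table holds no detection p-values. The fit was also run on simulated independent genes with normal noise. Such data hold neither signal shared between histone copies nor an array that stands apart, so nothing about those is concluded from them. The number of arrays limits the precision.

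A gene was above the array median where its control mean exceeded the mean of the medians of those arrays over all rows. Values on every array are given for genes past the threshold in J82, the 2 most negative in RT112 and the brightest in RT112 controls of each class (brightness only chose which values to print), and the genes with polyadenylated transcripts. Of the other lists, SLBP, NPAT, CASP8AP2 and the up to 4 genes with the largest differences past the threshold were to be named, and CCNE1, SNRPG and IPO4 were added after their values were seen. The members and lists were chosen with earlier results of these data known. Markers of epithelial, mesenchymal, leukocyte and endothelial cells were read in the controls. In treated cells, 1 of 10 epithelial markers fell and 2 rose in RT112 (2 fell and 0 rose in J82). Of 6 mesenchymal markers 0 passed the threshold in RT112 and 2 fell in J82, and of 4 leukocyte and 4 endothelial markers 0 passed it in either line (limma). Over all genes 3.53% fell and 4.95% rose in RT112, and 2.78% fell and 5.4% rose in J82. Alternatives were the replicate block, scaling, a second quantile normalization, an intensity filter, other probe set and prior choices, array weights, each line alone, a size threshold and leaving out each array. After the data were seen, the class, list and shared-row counts were also taken without RT112 palbociclib replicate 1. Histone mRNAs lack a poly(A) tail, and how the RNA was primed is not stated in the labels.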

Additional observations from a re-analysis of the deposited data

Results flagged for a closer look

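The response to palbociclib differed between RT112 and J82 for 16 of the 32 histone genes, by the test of the difference in limma, and all 16 were more negative in RT112. Line and dose, given only as IC50, cannot be told apart in this comparison. The difference on the log2 scale was -6.32 for H2BC3, -6.10 for H2BC14, -4.56 for H2BC9, -4.13 for H2BC10, -2.73 for H2BC17, -2.35 for H2BC5, -2.33 for H2BC13, -2.20 for H2BC12, -1.61 for H2BC11 and -1.29 for H2BC26 among the H2B genes. Among the H2A genes it was -3.90 for H2AC21, -3.41 for H2AC20, -2.47 for H2AC25, -1.71 for H2AC14 and -0.68 for H2AC16. For H4C3 it was -3.79. H2AC25 stands apart among these, since its difference comes with a rise in J82 (2.05) and a value in RT112 (-0.41) that did not pass the threshold, although it ran from -0.78 to -0.02 with an array left out and passed as lower with array weights (-0.88). H2BC14 and H2AC14 were below the array medians in J82 controls, and H2BC3 (4.99) was close to them (4.85). The calls for H2BC5 and H2BC12 were each lost with any of several arrays left out and with the arrays shifted to a single median.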

How the results depend on the processing

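The count of histone genes that fell in RT112 (19) was 17 to 20 with each array left out and 24 with array weights, and that of genes with a more negative response in RT112 (16) was 12 to 17. In RT112 and for the difference, 0 genes were called in the opposite direction with any array left out. The small J82 counts moved. The genes that fell (1) were 4 with the replicate block, which added H1-4 (-1.18) and H2BC9 (-0.96) among those named, 2 with each line fitted alone, 0 where the log2 difference also had to reach 1, and 0 to 2 with an array left out. The genes that rose (2) were 1 with the arrays shifted to a single median or each line fitted alone, H2AC6 (1.59) losing its call, and 1 to 3 with an array left out. The replicate block also brought the difference of H2AC6 (-1.65) past the threshold. The setting with genes above the array medians only kept 22 of the 32 genes, by their mean over all 12 arrays. The median was then -1.82 in RT112, -2.26 for the difference between lines and -0.07 for the difference between controls (0.11 over all 32 genes). H2BC14 passed that filter through its RT112 controls alone (9.58, against 3.51 under palbociclib and 3.59 and 3.63 in J82). These medians are therefore no separate support. The J82 median was -0.15 to 0.02 with an array left out, the positive value coming without control replicate 1. Control differences were 5 to 8 genes higher and 5 to 9 lower. Of the named genes' values under the other settings, 390 kept their side of the threshold, 7 gained it and 6 lost it. With an array left out the counts were 477, 5 and 22. Replicate numbers were not taken to pair the cultures, since the labels do not say that they mark a shared day. Deviations of same-numbered arrays correlated at 0.172, 0.188 and 0.075 in J82 and at 0.086, -0.193 and 0.173 in RT112. Those of arrays with unlike numbers lay between -0.146 and -0.006 in J82 and between -0.303 and 0.317 in RT112. In J82 the same-numbered values were thus all the higher, and a pairing there was not tested. The causes were not tested. The replicate block moved no count by over 1.5 times other than the J82 falls. Genes near the array medians have less room to fall than brighter ones. Falls from near them were still called in RT112, as for H2AC14 (from 5.33 to 3.80).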
